A study of Saccharomyces pastorianus Weihenstephan 34/70 with 7 samples.

Results

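Transcript levels of 10 genes of the phosphate starvation (PHO) response of budding yeast were followed across high gravity beer fermentations. The genes were PHO5, PHO8, PHO84, PHO89, PHO4, PHO81, SPL2, VTC1, VTC3 and VTC4, chosen by name as known components or targets of that response, and they are 10 of the 5635 Saccharomyces cerevisiae genes measured. Each was represented by the probe set annotated with its symbol, and none of the 10 probe sets is of a kind that also binds similar transcripts. All fermentations were run with the lager yeast Saccharomyces pastorianus Weihenstephan 34/70 in wort of 21 °Plato, and all arrays come from the stationary phase. The wort was enriched with maltose syrup or with glucose syrup, with or without Flavourzyme, a peptidase mixture that releases amino acids from wort protein. Of the 7 arrays, 1 measured maltose wort with Flavourzyme and 2 measured maltose wort alone, called the maltose control. Glucose wort with Flavourzyme and glucose wort alone, the glucose control, had 2 arrays each. Lager yeast is a hybrid of Saccharomyces cerevisiae and Saccharomyces eubayanus, and the probes match Saccharomyces cerevisiae, so a value may mix signal from both parents' copies of a gene.

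Yeast senses inorganic phosphate through the PHO pathway. When phosphate is plentiful, the cyclin Pho80 and the kinase Pho85 phosphorylate the transcription factor Pho4, which then leaves the nucleus. When phosphate is scarce, the inhibitor Pho81 keeps Pho80 and Pho85 inactive, and Pho4 together with Pho2 switches on transporters, phosphatases and the vacuolar machinery that stores phosphate as polyphosphate. Inositol pyrophosphates, which are highly phosphorylated inositols, take part in this signalling.

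Values are given as log2 signal, a scale on which 1 unit is a doubling, and they can be compared between arrays for a gene but not between genes. The duplicate arrays correlated across all genes with r of 0.988 for glucose Flavourzyme, 0.997 for the maltose control and 0.928 for the glucose control, so the glucose controls differed most from each other. The mean of 12 ribosomal RNA probe sets lay between 8.86 and 9.86 on the 3 maltose arrays and between 11.1 and 13.0 on the 4 glucose arrays. These levels moved with the wort, and their part in the results below was not tested. The sampling times differed between the worts and with the use of Flavourzyme, so an effect of wort or of enzyme cannot be told apart from one of sampling time. The sources used here do not say whether duplicate arrays come from separate fermentations, so the p-values measure only the spread between these samples.

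The wort effect compared the maltose groups, with and without Flavourzyme weighted equally, with the glucose groups, and is given as maltose minus glucose. PHO89 and PHO84, both high-affinity phosphate transporters, fell in maltose wort, as did VTC1 and VTC4 of the polyphosphate polymerase, while SPL2 rose. Thus 5 of the 10 genes passed an adjusted p of 0.05 in limma, 1 of them higher and 4 lower, where 34.3% of all genes passed, 23% higher and 11.3% lower. Without the single maltose Flavourzyme array only PHO84 passed, and the differences of VTC1, SPL2 and VTC4 were 0.022, 0.0057 and -0.22. No pass held without either maltose control or either glucose Flavourzyme array. Leaving out a glucose control removed the spread between those duplicates from the fit, so passes there are not counted. The direction of the calls over all genes depended on the scaling: with the log2 threshold below, 295 genes were higher and 201 lower as deposited, against 127 and 263 after quantile normalization of the Saccharomyces cerevisiae probe sets alone and 176 and 282 after centring on their median. The median log2 difference of the 10 genes was -0.54, against 0.26 over all genes. It was -0.79 against 0.24 with Flavourzyme, where the maltose side is the single array, and -0.28 against 0.20 between the controls. Only PHO89 also passed the log2 threshold of 1.301, the limit set for effects of wort or of Flavourzyme, which 8.8% of all genes passed. The 3 maltose and the 4 glucose arrays did not overlap for PHO84, PHO89, PHO8, PHO4 and PHO81, thus for 5 of the 10 genes, and for 41.1% of all genes.

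**Figure D1:**
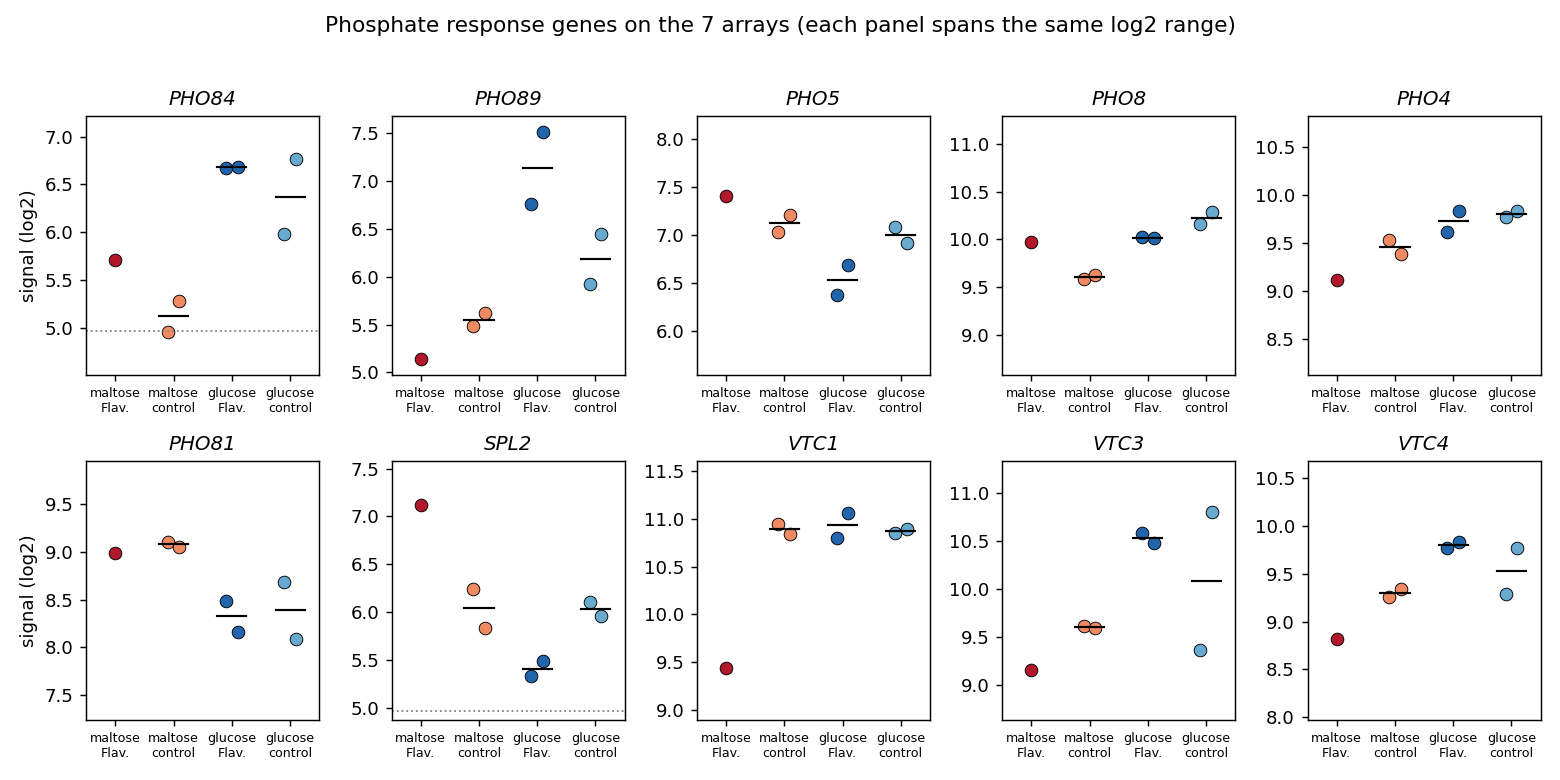
Log2 signal of the 10 phosphate response genes on each of the 7 arrays. Each panel is 1 gene, each point is 1 array, and horizontal bars mark group means, with maltose groups left of glucose groups and Flavourzyme left of its control, and the dotted line marks the background level of 4.96. PHO89 lies between 5.14 and 5.62 on maltose arrays and between 5.93 and 7.51 on glucose arrays, and VTC1 is lowest on the single maltose Flavourzyme array at 9.44.

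PHO89 encodes a sodium-coupled phosphate transporter that works best at alkaline pH. Its log2 signal was 5.14 on the maltose Flavourzyme array and 5.48 and 5.62 on the maltose controls. It was 6.76 and 7.51 with Flavourzyme in glucose wort, and 5.93 and 6.44 on the glucose controls. Every maltose array was thus below every glucose array, and the highest values were those of glucose wort with Flavourzyme. The wort effect was -1.32 ± 0.25 (SE) with a 95% confidence interval of -1.94 to -0.69 and an adjusted p of 0.018, a level 2.49-fold lower in maltose wort. This call was lost when any array other than replicate 1 of the glucose control was left out, with values between -1.50 and -0.63, although without replicate 2 of the glucose control only the log2 threshold was missed (-1.19). The smallest difference, -0.63 (adjusted p = 0.183), was that without the maltose Flavourzyme array, and the difference between the control fermentations alone. With Flavourzyme the wort difference was -1.997 ± 0.394 (adjusted p = 0.0578). Flavourzyme against control gave 0.95 ± 0.32 in glucose wort (adjusted p = 0.701) and -0.41 in maltose wort, and the interaction was -1.36 ± 0.51 (adjusted p = 0.237), so a difference between the worts in the enzyme's effect was not shown.

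PHO84 encodes the main high-affinity transporter, which takes up phosphate with protons and is among the most strongly induced genes of phosphate starvation. The maltose Flavourzyme array gave 5.71 and the maltose controls gave 4.96 and 5.28, whereas glucose wort with Flavourzyme gave 6.67 and 6.68 and the glucose controls gave 5.98 and 6.76. The groups of the 2 worts did not overlap, although signals were low. The background level here was 4.964, the 95th percentile of the probe sets for fission yeast or for several genes. On 6 of 7 arrays PHO84 lay above it, and replicate 1 of the maltose control, at 4.963, lay just below. PHO84 fell by 1.11 on the log2 scale in maltose wort (SE 0.24, adjusted p = 0.0227), a level 2.15-fold lower, but lost the pass without either maltose control and without either glucose Flavourzyme array, with differences of -1.19 to -1.03. Between the controls it was 2.37-fold lower in maltose wort, at -1.25 ± 0.30 (adjusted p = 0.0328), and it was the only one of the 10 genes called in that comparison, in which 28.6% of all genes were called. That call was lost without either maltose control (-1.09 and -1.41) and without either glucose Flavourzyme array (-1.25). Without replicate 1 or replicate 2 of the glucose control, the difference was -1.64 and -0.85. With Flavourzyme the wort difference was -0.97 ± 0.37 (adjusted p = 0.151).

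Among 8 other transporters and their helpers, 1 passed the adjusted p in the wort effect, as did 34.3% of all genes. This was GIT1, the permease for glycerophosphoinositol and glycerophosphocholine, through which yeast can obtain phosphate from phospholipid breakdown products. GIT1 had 5.23 on the maltose Flavourzyme array and 5.51 and 5.52 on the maltose controls, against 7.81 and 7.38 in glucose wort with Flavourzyme and 8.03 and 7.87 on the glucose controls. The gap between the worts was wider than the spread within any group. GIT1 fell by 2.40 on the log2 scale in maltose wort (SE 0.17, adjusted p = 0.00381), a level 5.29-fold lower. The difference was -2.37 with Flavourzyme (adjusted p = 0.044) and -2.44 without it (adjusted p = 0.00605). With 1 array left out these reached adjusted p of up to 0.226 and 0.135, both passes being lost without either maltose control and that with Flavourzyme also without either glucose Flavourzyme array. Leaving out either maltose control or replicate 2 of glucose Flavourzyme moved the adjusted p of the wort effect above 0.05, to between 0.0528 and 0.0618, with the difference between -2.51 and -2.40. The low-affinity transporters PHO87 and PHO90, which serve uptake when phosphate is plentiful, had wort effects of -0.21 (adjusted p = 0.58) and 0.41 (adjusted p = 0.299).

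PHO5 encodes the secreted acid phosphatase that releases phosphate from organic compounds outside the cell, the classical reporter of the pathway. It had 7.40 on the maltose Flavourzyme array and 7.03 and 7.21 on the maltose controls, against 6.38 and 6.68 in glucose wort with Flavourzyme and 7.08 and 6.91 on the glucose controls. The maltose controls overlapped the glucose controls, and the lowest values were those of glucose wort with Flavourzyme. The wort effect was 0.50 ± 0.16 (adjusted p = 0.0625), and its sign turned, to -0.070, when the Saccharomyces cerevisiae probe sets alone were quantile normalized. With Flavourzyme the wort difference was 0.87 ± 0.26 (adjusted p = 0.0939), and between the controls it was 0.12. PHO8 encodes the alkaline phosphatase of the vacuole. It had 9.97 on the maltose Flavourzyme array, 9.59 and 9.63 on the maltose controls, 10.02 on both arrays of glucose wort with Flavourzyme, and 10.16 and 10.29 on the glucose controls. All maltose arrays were below all glucose arrays, in the narrowest range of the 10 genes, 0.70. Its wort effect was -0.33 ± 0.14 (adjusted p = 0.114). Between the controls the difference was -0.62 ± 0.18 (adjusted p = 0.0503), whereas with Flavourzyme it was -0.045.

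Of 8 other phosphatases and polyphosphatases measured, 2 passed the adjusted p in the wort effect, against 34.3% of all genes, and both were higher in maltose wort, as were most genes that passed. PPX1, the exopolyphosphatase that shortens polyphosphate chains, had 8.77 on the maltose Flavourzyme array and 8.46 and 8.35 on the maltose controls, against 7.52 and 7.30 in glucose wort with Flavourzyme and 7.52 and 6.64 on the glucose controls. PPX1 rose by 1.34 ± 0.25 (adjusted p = 0.0173). GDE1, which cleaves glycerophosphocholine inside the cell, rose by 0.90 ± 0.22 (adjusted p = 0.0277). PHM8, a phosphatase induced by low phosphate, was lower in maltose controls than in glucose controls at -0.995 ± 0.245 (adjusted p = 0.0334). That comparison called 28.6% of all genes, and PPX1 also passed in it, higher in maltose wort. The wort effect of PHM8 over all groups was -0.52 (adjusted p = 0.0822). With Flavourzyme, PHM8 had 10.32 on the maltose array and a mean of 10.37 in glucose wort. The acid phosphatase PHO11, whose probe set is shared with similar transcripts, had a wort effect of 0.75 (adjusted p = 0.0618). PHO3, an acid phosphatase that does not depend on phosphate, was above background on only 2 of 7 arrays.

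**Figure D2:**
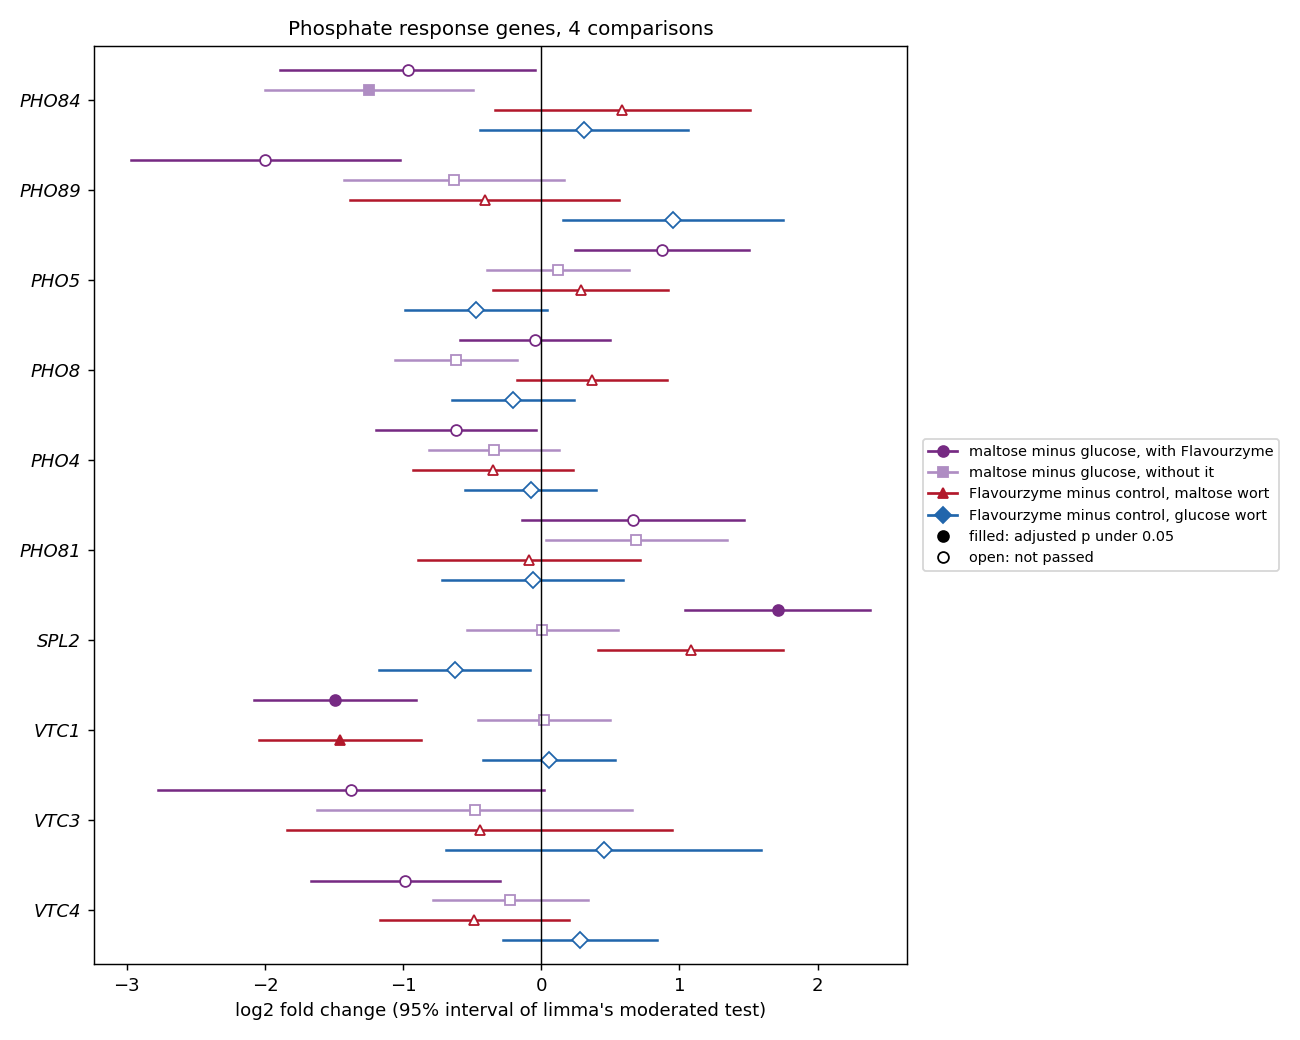
Log2 difference (horizontal axis) of each of the 10 genes between maltose and glucose wort, with and without Flavourzyme, and between Flavourzyme and control within each wort, with 95% confidence intervals from limma and filled symbols for an adjusted p under 0.05. The filled symbols are PHO84 at -1.25 without Flavourzyme, SPL2 at 1.71 and VTC1 at -1.49 with it, and VTC1 at -1.46 for Flavourzyme in maltose wort.

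PHO4 encodes the transcription factor itself. It had 9.11 on the maltose Flavourzyme array and 9.53 and 9.38 on the maltose controls, against 9.61 and 9.83 in glucose wort with Flavourzyme and 9.77 and 9.83 on the glucose controls. The maltose arrays were all below the glucose arrays, with a wort effect of -0.48 ± 0.15 (adjusted p = 0.0559). PHO81, whose product inhibits the Pho80 and Pho85 complex, had 8.99 on the maltose Flavourzyme array and 9.10 and 9.05 on the maltose controls, against 8.49 and 8.16 in glucose wort with Flavourzyme and 8.69 and 8.09 on the glucose controls. Here all maltose arrays were above all glucose arrays, with a wort effect of 0.68 ± 0.21 (adjusted p = 0.0532). Neither PHO4 nor PHO81 passed the threshold. Their differences with Flavourzyme were between -0.35 and -0.062 in both worts.

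SPL2 encodes a small protein that restrains low-affinity phosphate uptake when phosphate is scarce. It had 7.12 on the maltose Flavourzyme array and 6.25 and 5.83 on the maltose controls, against 5.33 and 5.49 in glucose wort with Flavourzyme and 6.10 and 5.96 on the glucose controls. The single maltose Flavourzyme array was the highest and both glucose Flavourzyme arrays were the lowest, with the controls of both worts overlapping in between. SPL2 rose in maltose wort by 0.86 ± 0.17 (adjusted p = 0.0195), but lost the pass without either maltose control and without either glucose Flavourzyme array (0.76 to 0.96), and the value was 0.0057 without the maltose Flavourzyme array and 0.30 (adjusted p = 0.313) after quantile normalization of the Saccharomyces cerevisiae probe sets alone. In the comparison of worts with Flavourzyme, SPL2 and VTC1 were the 2 of the 10 genes called, where 2.91% of all genes were called. SPL2 was 3.28-fold higher in maltose wort there, at 1.71 ± 0.27 (adjusted p = 0.0458), and between the controls it was 0.0057 ± 0.22. Flavourzyme against control gave 1.08 ± 0.27 in maltose wort (adjusted p = 0.0961) and -0.63 ± 0.22 in glucose wort (adjusted p = 0.701). The interaction was 1.71 ± 0.35 (adjusted p = 0.0961). The call with Flavourzyme was lost without either maltose control (1.71), without either glucose Flavourzyme array (1.64 and 1.79), without moderation of the variance, with a replicate block, after quantile normalization (1.17), and with the arrays centred on the median of the Saccharomyces cerevisiae genes (1.52).

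Of 9 other genes of signalling and inositol pyrophosphate metabolism, 5 passed the adjusted p in the wort effect, 4 of them higher and 1 lower, where 34.3% of all genes passed, 23% higher and 11.3% lower. PHO80, the cyclin, had 10.82 on the maltose Flavourzyme array and 9.79 and 9.81 on the maltose controls, against 8.46 and 8.29 in glucose wort with Flavourzyme and 9.62 and 8.04 on the glucose controls. PHO80 rose by 1.71 ± 0.39 (adjusted p = 0.0258), although the glucose controls differed from each other by more than the gap between the closest arrays of the 2 worts. Without the maltose Flavourzyme array, its difference was 0.97 (adjusted p = 0.187). IPK1, the kinase that makes inositol hexakisphosphate, had 7.99 on the maltose Flavourzyme array and 8.06 and 8.03 on the maltose controls, against 6.38 and 6.43 in glucose wort with Flavourzyme and 7.31 and 5.74 on the glucose controls. IPK1 rose by 1.55 ± 0.39 (adjusted p = 0.0312). DDP1, a phosphatase that degrades inositol pyrophosphates, rose by 1.13 ± 0.18 (adjusted p = 0.0131). It also passed between the controls, with means of 10.38 in maltose and 8.99 in glucose wort, where 28.6% of all genes passed. With 1 array left out that difference was 1.15 to 1.63, and its pass was lost without either maltose control. KCS1, a kinase that makes inositol pyrophosphates, rose by 0.93 ± 0.20 (adjusted p = 0.0227). PLC1, the phospholipase C whose product feeds inositol phosphate synthesis, fell by 0.85 on the log2 scale (SE 0.20, adjusted p = 0.026). PHO85, the kinase, had 9.37 on the maltose Flavourzyme array against 10.95 on both maltose controls, and 9.83 and 10.01 in glucose wort with Flavourzyme against 10.20 and 10.14 on the glucose controls. With Flavourzyme in maltose wort, PHO85 fell by 1.58 on the log2 scale (SE 0.22, adjusted p = 0.0435). Between the controls PHO85 was higher in maltose wort, at 0.78 ± 0.18 (adjusted p = 0.03), whereas with Flavourzyme the wort difference was -0.56 (adjusted p = 0.161), and the average of both was 0.11.

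VTC1, VTC3 and VTC4 encode subunits of the vacuolar transporter chaperone complex, which makes polyphosphate from ATP and moves it into the vacuole. Vtc4 is the catalytic subunit, Vtc1 is a small membrane subunit and Vtc3 is an accessory subunit. All 3 genes had negative wort effects, and none of them had maltose and glucose arrays that were fully apart. VTC1 had 9.44 on the maltose Flavourzyme array and 10.94 and 10.84 on the maltose controls, against 10.80 and 11.06 in glucose wort with Flavourzyme and 10.85 and 10.89 on the glucose controls. Only the single maltose Flavourzyme array was low, and the other 6 arrays lay close together. VTC1 was the 1 gene of the 10 called for Flavourzyme against control in maltose wort, where 1.99% of all genes were called. It fell there by 1.46 on the log2 scale (SE 0.24, adjusted p = 0.0496), a level 2.75-fold lower. Against glucose wort with Flavourzyme, it fell by 1.49 on the log2 scale in maltose wort with Flavourzyme (SE 0.24, adjusted p = 0.0458), a level 2.81-fold lower. Flavourzyme against control in glucose wort gave 0.057, and maltose against glucose controls gave 0.022 ± 0.19. The interaction was -1.51 ± 0.31 (adjusted p = 0.0946). Both VTC1 calls were lost without either maltose control and without either glucose Flavourzyme array, at values of -1.51 to -1.41 for Flavourzyme and -1.62 to -1.36 for wort, and also without moderation of the variance and with a replicate block. The wort effect over all groups, at which VTC1 fell by 0.73 on the log2 scale (SE 0.15, adjusted p = 0.0207), was 0.022 without the maltose Flavourzyme array, and missed the threshold without either maltose control and without either glucose Flavourzyme array.

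VTC4 had 8.82 on the maltose Flavourzyme array and 9.26 and 9.34 on the maltose controls, against 9.77 and 9.83 in glucose wort with Flavourzyme and 9.28 and 9.76 on the glucose controls. The first glucose control fell among the maltose controls. VTC4 fell by 0.60 on the log2 scale in maltose wort (SE 0.18, adjusted p = 0.0475), a pass that was kept only without either glucose control, and the difference was -0.22 (adjusted p = 0.481) without the maltose Flavourzyme array. VTC3 had 9.16 on the maltose Flavourzyme array and 9.61 and 9.60 on the maltose controls, against 10.59 and 10.48 in glucose wort with Flavourzyme and 9.36 and 10.81 on the glucose controls. The glucose controls lay furthest apart of the 10 genes here, with an SD of 1.02. The wort effect of VTC3 was -0.93 ± 0.36 (adjusted p = 0.0932). It was -1.29 without replicate 1 of the glucose control and -0.57 without replicate 2, in fits that no longer held the spread between these arrays. VTC2, the paralogue of VTC3, had a wort effect of -0.59 ± 0.18 (adjusted p = 0.052). None of the 3 other chaperone and phosphate-regulated genes measured passed the adjusted p.

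**Figure D3:**
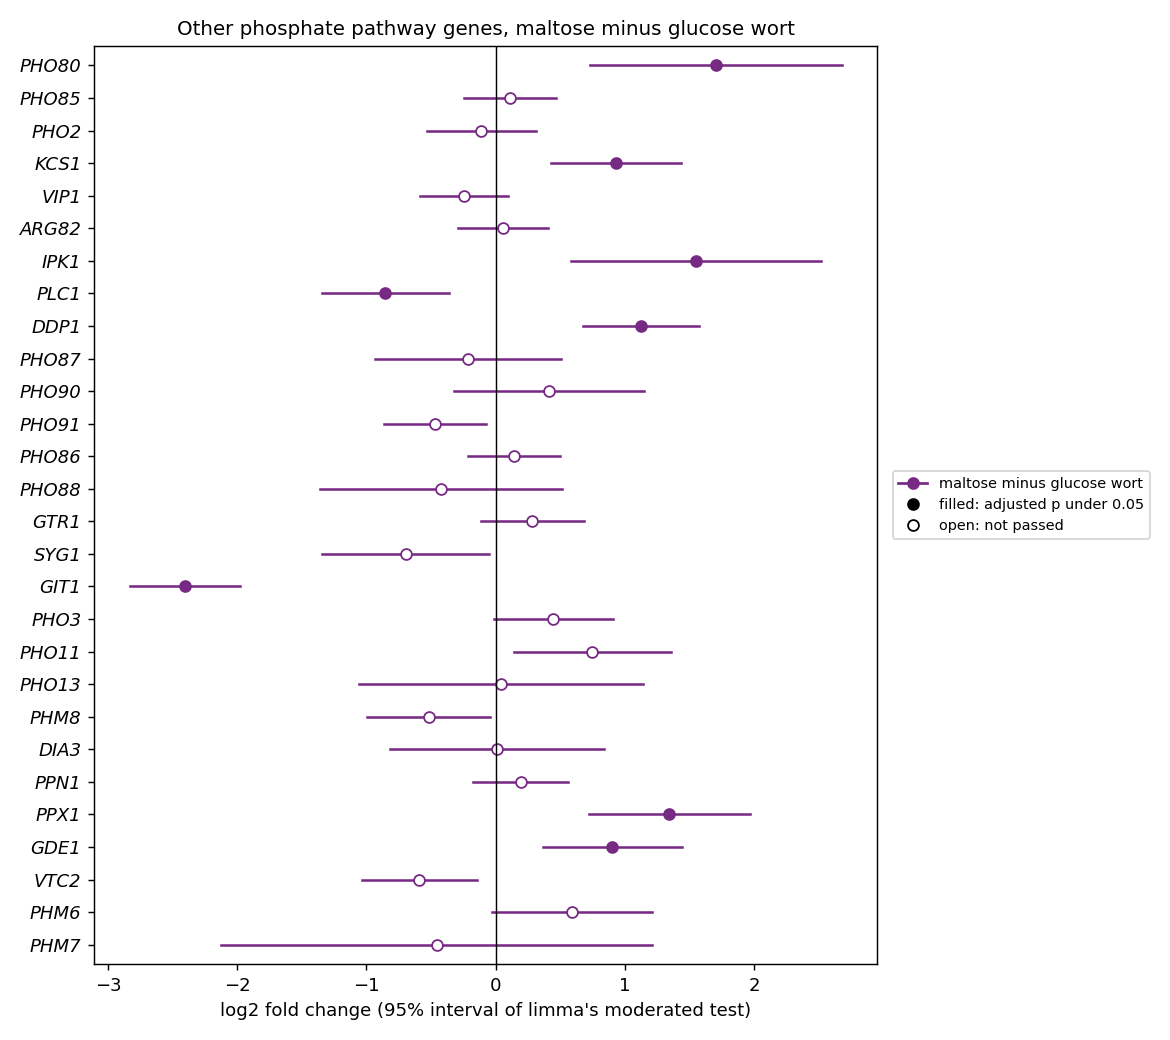
Wort effect, the log2 difference of maltose minus glucose groups, of the 28 other phosphate pathway genes measured, with 95% confidence intervals from limma and filled symbols for an adjusted p under 0.05. GIT1 is furthest to the left at -2.40 and PHO80 furthest to the right at 1.71.

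Flavourzyme against control over both worts called none of the 10 genes in limma, where 0.0355% of all genes were called. At an unadjusted p under 0.05, which 16% of all genes had, there was 1, VTC1, at -0.70 ± 0.15 (adjusted p = 0.206), and the other 9 lay between -0.21 and 0.45. The interaction of wort and Flavourzyme called none of the 10, and again 0.0355% of all genes, while 3 of the 10, against 19.1% of all genes, had an unadjusted p under 0.05, namely VTC1, SPL2 and PHO89. Within glucose wort, Flavourzyme called none of the 10 and 0% of all genes, and 2 of the 10, PHO89 and SPL2, had an unadjusted p under 0.05, against 6.97% of all genes.

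Across the 28 other pathway genes measured of 30 listed, 8 passed the adjusted p in the wort effect, 6 higher and 2 lower, where 34.3% of all genes passed, 23% higher and 11.3% lower, and 4 also passed the log2 threshold, which 8.8% of all genes did. Their median difference was 0.085, against 0.26 over all genes. None of these 8 genes passed without either maltose control or without replicate 2 of glucose Flavourzyme, only GIT1 passed without replicate 1 of it, and PHO80, IPK1, KCS1, GDE1 and PLC1 did not pass without the maltose Flavourzyme array. The differences of PHM8 and PHO85 between the controls, and that of PHO85 with Flavourzyme in maltose wort, did not pass without either maltose control or either glucose Flavourzyme array. The 2 genes of the 10 with the widest range over the arrays were PHO89, at 2.37, and PHO84, at 1.80, where the median range over all genes was 1.28. The genes whose profile over the 7 arrays was most like that of PHO84 were ASM4, PAH1, CHS5, MDM32 and MET2, with a root mean square difference of 0.0900 to 0.134 after each gene's mean was taken off. Those most like PHO89 were ARP8, ULS1, PET20, MIM2 and STP3, at 0.255 to 0.302. Among the 10 genes themselves, PHO4 and VTC4 were closest, at 0.202, followed by PHO8 and PHO4 at 0.241.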

How the data were processed

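RNA was hybridized to Affymetrix Yeast Genome 2.0 arrays. The authors deposited log2 values, which the labels ascribe to MAS5 and RMA in the R package affy, and which were used unchanged, so quantile normalization over probe sets of both yeasts on the array can shift all genes of a wort together. Of 10928 probe sets, 5685 name S. cerevisiae genes. Where a gene had several (48 genes), only the brightest on average was used, which left 5635 genes, with no filter on low signal. The model, in limma 3.58.1 (R 4.3.3), had 4 group means, 3 residual degrees of freedom and eBayes moderation. With 1 maltose Flavourzyme array, that group borrows its spread from the other groups. P-values are two-sided and adjusted by Benjamini-Hochberg over all genes tested. A call is an adjusted p under 0.05, and for the overall wort and Flavourzyme effects also a log2 difference over 1.301. The number of arrays limits the precision. The fit was tested on simulated data. Members and lists were chosen with earlier results of these data known. All 10 genes were named, with up to 3 pathway genes per list and comparison that passed the adjusted p, and others by role. PHO12 and VTC5 matched no probe set annotated to a single S. cerevisiae gene. Alternatives were another scaling, a background filter, averaged probe sets, no moderation, a replicate block and each array left out. Promoter sequences were not analysed here.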

Additional observations from a re-analysis of the deposited data

How the results depend on the processing

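Of the 10 genes, the wort effect called 1, the effect of Flavourzyme within maltose wort 1, the wort effect with Flavourzyme 2 and that without it 1. After quantile normalization over the S. cerevisiae probe sets these counts were 2, 1, 1 and 2, and the interaction called 1 (VTC1). Centring on the median of the S. cerevisiae genes gave 1 call with Flavourzyme and 2 without it, and the background filter gave 2 without it. Without moderation none of the 10 genes was called except PHO8, in the wort effect without Flavourzyme. Over all genes the wort effect then called 138 in place of 496. With a replicate block, 0 of the 10 were called for the wort effect, Flavourzyme in maltose wort and wort with Flavourzyme. For wort without Flavourzyme 1 was called (PHO84), and over all genes the wort effect called 417. The deviations of same-numbered arrays correlated across genes with r of only 0.102, 0.182 and 0.00736, so the numbers were not taken to pair arrays. The wort effect over all genes split into 295 higher and 201 lower calls, against 127 and 263 after quantile normalization, where the median of all genes was 0.066, and 176 and 282 after centring. Over all genes, Flavourzyme in maltose wort called 112, against 423 after quantile normalization, 9 without moderation and 2 with the block. Wort with Flavourzyme called 164, against 353, 14 and 0 in the same settings and 91 after centring. Wort without Flavourzyme called 1609, against 1786 after quantile normalization, 1529 after centring and 1626 with the background filter. It called 581 without moderation and 1494 with the block. The interaction called 2, against 167 after quantile normalization. With 1 array left out, the calls among the 10 ranged over 0 to 2 for the wort effect, 0 to 5 for the interaction, 0 to 5 for Flavourzyme in maltose wort, 0 to 4 for Flavourzyme in glucose wort, 0 to 9 for wort with Flavourzyme and 0 to 5 for wort without it, and stayed at 0 for the Flavourzyme effect. The calls over all 5635 genes moved with them, over 0 to 912 for the wort effect, 0 to 2200 for the interaction, 0 to 1874 for Flavourzyme in glucose wort, 0 to 3049 for wort with Flavourzyme, 1 to 3720 for wort without it and 0 to 55 for the Flavourzyme effect. The highest counts came without a glucose control, and so did those over all genes. For Flavourzyme in maltose wort, the calls over all genes also rose there, far above the 112 of the main fit. The higher count among the 10 genes was thus not particular to them. Fits without a glucose control no longer held the spread between those duplicates, so their counts are not read as passes. None of the 10 genes was called in any comparison without either maltose control or either glucose Flavourzyme array. Over all genes, calls remained there in some comparisons. Signs that turned under quantile normalization were PHO5 at -0.070 for wort, 0.073 for Flavourzyme and -0.45 for wort without Flavourzyme, SPL2 at -0.57 for wort without Flavourzyme, and PHO81 at 0.018 for Flavourzyme in glucose wort. Under centring they were PHO4 at 0.019 and PHO81 at 0.033 for Flavourzyme in glucose wort, and SPL2 at -0.11 and VTC1 at -0.10 for wort without Flavourzyme. With 1 array left out, signs turned for the Flavourzyme effect of PHO8 (-0.20 to 0.11), PHO81 (-0.22 to 0.074), SPL2 (-0.63 to 0.33), VTC1 (-0.77 to 0.057), VTC3 (-0.36 to 0.45) and VTC4 (-0.22 to 0.28). They turned for Flavourzyme in glucose wort for PHO84 (-0.087 to 0.70), PHO4 (-0.19 to 0.033), PHO81 (-0.36 to 0.24), VTC1 (-0.075 to 0.19) and VTC3 (-0.27 to 1.18), and for the interaction of PHO84 (-0.11 to 0.67) and PHO81 (-0.32 to 0.27). They turned for wort without Flavourzyme for SPL2 (-0.20 to 0.21), VTC1 (-0.028 to 0.073), VTC3 (-1.20 to 0.24) and VTC4 (-0.46 to 0.018), and for the wort effect of VTC1 (-0.80 to 0.022). The causes were not tested. Of the 8 pathway genes that passed the adjusted p in the wort effect, none changed sign under any alternative, and without moderation only GIT1 passed.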

Other observations

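Among the other pathway genes, 3 phosphate-regulated or phosphatase genes differed widely between the duplicate glucose controls. They were chosen after their values were seen, and genes of the other lists also differed widely. The glucose controls gave 9.62 and 8.04 for PHO80, 7.31 and 5.74 for IPK1, and 11.22 and 12.69 for PHO88. PHM7, a gene regulated by phosphate levels, had 11.05 on the maltose Flavourzyme array and 8.46 and 8.43 on the maltose controls, against 9.67 and 10.25 in glucose wort with Flavourzyme and 11.84 and 9.06 on the glucose controls, the widest range of the genes described, 3.41. DIA3 had 10.58 and 9.33, and PHO13 had 9.04 and 7.24, on the glucose controls.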
